A study of Mus musculus with 4 samples.

Results

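The 10 genes described here encode 8 plasma apolipoproteins, Apoa1, Apoa2, Apoa4, Apoa5, Apob, Apoc2, Apoc3 and Apoe, and the VLDL assembly factors Mttp and Tm6sf2, out of 23462 genes that the arrays could be matched to. They were chosen by name, from what the proteins do, with no cut on a measured value but with earlier results of these data known. Liver RNA of male mice of C57BL/6 background, 24 weeks old, was hybridised to 4 one-colour Agilent arrays, 1 for each combination of genotype and diet. F/F mice carried homozygous floxed Lpiat1 alleles (Lpiat1F/F, no Cre), and LKO mice carried the same alleles together with Alb-Cre, in which the albumin promoter drives Cre in hepatocytes, so that other liver cells keep the gene. All mice were floxed, and since F/F mice had no Cre, the Cre transgene and the loss of Lpiat1 cannot be told apart. Chow (CE2) or HFD (HFD-60) was given for 18 weeks from 6 weeks of age. The sources used here do not say whether the RNA on an array came from 1 mouse or from several. Lpiat1, also named Mboat7, encodes the enzyme that returns arachidonic acid to phosphatidylinositol.

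Hepatocytes export triglyceride in VLDL, a particle built on a single apolipoprotein B molecule. The microsomal triglyceride transfer protein, encoded by Mttp, loads the nascent apolipoprotein B with lipid in the endoplasmic reticulum, and TM6SF2 takes part in enlarging the particle with more lipid. The smaller apolipoproteins exchange between particles, where they activate or inhibit lipoprotein lipase, bind receptors, or give HDL its structure.

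With 1 array per condition no difference has a replicate check, no test was possible and no p-value is given. Values are Agilent processed signals, in arbitrary units, given for each diet as a pair with F/F first and LKO second. Differences are log2 ratios taken once the signals had been divided by the array's own 75th percentile. The only spread that could be measured was technical: replicate spots of the same probe on 1 array differed with a SD of 0.089 on the log2 scale (300 probes). A yardstick of 2 SD, 0.18, is used below. It leaves out technical differences between arrays and the differences between mice. A gene was counted as higher or lower when it differed by at least 1.5-fold. The 10 genes had 18 probes, 1 for Apoa1, Apoa4 and Mttp, 3 for Apoc3 and 2 for each of the other 6 genes, and all 18 were well above background on the 4 arrays. The 75th percentile itself was 222 and 213 on chow and 263 and 296 on HFD, and no spot was saturated. Mboat7, the targeted gene, gave 1102 and 861 on chow (log2 difference of LKO against F/F, -0.30) and 1181 and 1100.0 on HFD (-0.27). Where its probe lies relative to the deleted exons was not determined. Of the 12 hepatocyte markers, 11 were on the array and all 11 were well above background on every array.

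Apoa4 and Apoc2 were the members that were higher on HFD than on chow. By the brightest probe of each gene they also had the largest differences between the genotypes, and the largest by diet in F/F, while in LKO the scaled difference of Apoa1 was larger in size than that of Apoc2. Apoa4, an apolipoprotein of chylomicrons, VLDL and HDL made by intestine and, in mice, also by liver, was higher on HFD, by 8.98-fold in F/F liver and by 3.05-fold in LKO liver. Apoc2, the activator of lipoprotein lipase, was 2.31-fold and 1.37-fold higher. In LKO against F/F, both were higher on chow and lower on HFD. The other 8 genes gave nearly the same processed signal on the 4 arrays. Processed signals of Apoa4, Apoc2 and the others are drawn in the plot of every probe by array.

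**Figure D1:**
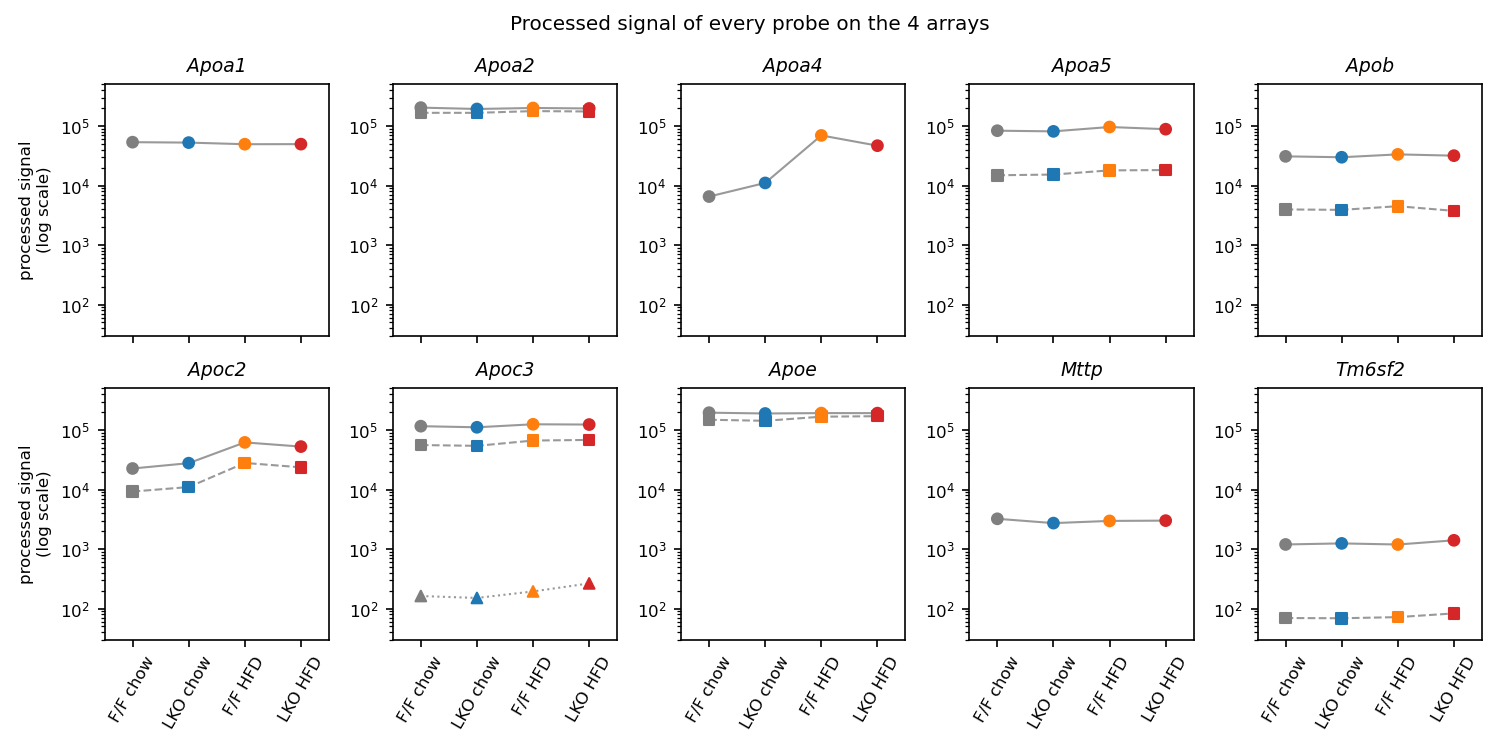
Processed signal (arbitrary units, log scale) of all 18 probes on the 4 arrays, 1 array per condition, with circles for the brightest probe of a gene, squares for the second and triangles for the third. Apoa4 stands at 6537 for F/F chow and 69676 for F/F HFD and both Apoc2 probes are higher on HFD too, while the brightest probes of the other 8 genes stay within 1.18-fold of themselves.

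The sequences before the starts of 3 genes are shown because Apoa4 and Apoc2 differed with diet by more than the threshold while Apoa5, which lies beside Apoa4 on chromosome 9, was flat. They are the 250 bases before the start of transcription, from the RefSeq promoter table of assembly GRCm38.p6, in lower case. Capitals mark a match, on either strand, to the TATA box, the nuclear receptor half-site or the HNF4 site spelled out in the next paragraph.
Apoa4, chr9:46240594-46240843, + strand: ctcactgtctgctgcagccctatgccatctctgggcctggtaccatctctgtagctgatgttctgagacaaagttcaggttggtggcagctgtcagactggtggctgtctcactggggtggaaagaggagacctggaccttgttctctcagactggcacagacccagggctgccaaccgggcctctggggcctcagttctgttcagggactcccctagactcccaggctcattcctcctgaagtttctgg
Apoc2, chr7:19677942-19678191, - strand: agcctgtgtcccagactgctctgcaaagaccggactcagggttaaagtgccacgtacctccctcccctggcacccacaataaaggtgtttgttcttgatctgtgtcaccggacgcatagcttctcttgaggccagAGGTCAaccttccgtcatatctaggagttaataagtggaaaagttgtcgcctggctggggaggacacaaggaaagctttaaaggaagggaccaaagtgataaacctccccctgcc
Apoa5, chr9:46268358-46268607, + strand, first of 2 starts: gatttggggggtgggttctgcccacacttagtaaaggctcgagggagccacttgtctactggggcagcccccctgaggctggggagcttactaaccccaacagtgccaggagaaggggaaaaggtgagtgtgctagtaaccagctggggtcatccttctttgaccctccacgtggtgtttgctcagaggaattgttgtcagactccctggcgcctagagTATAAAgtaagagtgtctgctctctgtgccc

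A search on both strands covered 8 motifs: the TATA box (TATAAA), the nuclear receptor half-site (AGGTCA), the HNF4 site (CAAAGTCCA), the NF-Y box (CCAAT), the cyclic AMP response element (TGACGTCA) and its half-site (TGACG), which every full element also contains, the E-box (CACGTG) and the C/EBP site (TTGCNNAA). The window of Apoa4 holds no exact match to these 8 spellings. It does hold CAAAGTTCA, a close variant of the HNF4 spelling, and inexact matches were not searched for. That of Apoc2 holds AGGTCA from -115 to -110 and TGACG, on the other strand, from -103 to -99, with -1 the last base before the start. Among 32851 promoters of the same length, 14.0% hold AGGTCA and 17.8% hold TGACG. The Apoa5 window holds TATAAA from -31 to -26 and CACGTG from -82 to -77, which 12.4% and 6.02% of the promoters hold. The table has entries for 8 of the 10 genes and none for Apoc3 and Tm6sf2. These are matches of letters only, and nothing was measured here on the binding of a factor.

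Apoa4 was measured by 1 probe. Its processed signal on chow was 6537 in F/F and 11070.1 in LKO, and on HFD it was 69676 in F/F and 46834 in LKO. Both HFD signals lay above both chow signals, and each LKO signal lay between those of F/F on the 2 diets. The log2 difference of HFD against chow was 3.17 in F/F and 1.61 in LKO. In F/F, 25 of 15358 genes with a value (0.163%) showed a larger positive difference, and in LKO 431 of 15242 (2.83%) did. On chow the LKO array was higher than the F/F array by a log2 difference of 0.82 (1.76-fold), and on HFD it was lower by -0.74 (1.67-fold). Each of these 4 differences exceeded 2 technical SD. Over all processing alternatives they ranged from 3.16 to 3.41, from 1.61 to 2.08, from 0.76 to 0.82 and from -0.77 to -0.57, so no alternative changed a sign.

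Apoc2 was measured by 2 probes. The brighter gave 22562 and 27725 on chow and 61953 and 52682 on HFD, and the dimmer gave 9247 and 11001 on chow and 27964 and 23618 on HFD. Both probes thus ordered the arrays as the Apoa4 probe did, from F/F chow through LKO chow and LKO HFD to F/F HFD. Among the 13981 genes well above background on all 4 arrays, 849 (6.07%) had that order. The diet difference (HFD against chow, log2) of the brighter probe was 1.21 in F/F and 0.46 in LKO, and that of the dimmer was 1.35 in F/F and 0.63 in LKO. For LKO against F/F the brighter probe gave 0.35 on chow and -0.40 on HFD, and the dimmer gave 0.31 and -0.41. The diet difference in LKO liver lies near the threshold, at 1.37-fold by the brighter and 1.55-fold by the dimmer probe. In F/F, 522 genes (3.40%) had a larger diet difference than Apoc2, and in LKO 2908 (19.1%) did. No alternative changed the sign of any of the 4 differences, whose ranges were 1.21 to 1.46, 0.46 to 0.93, 0.30 to 0.36 and -0.43 to -0.23.

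In counts, 2 of the 10 genes were at least 1.5-fold higher on HFD in F/F (Apoa4 and Apoc2), where 13.2% of all genes were, and 0 were lower, where 9.6% were. In LKO 1 gene was higher on HFD (Apoa4), against 15.4% of all genes, and 0 were lower, against 11.7%. For LKO against F/F on chow 1 gene was higher (Apoa4), against 3.52%, and 0 were lower, against 3.46%. On HFD 0 genes were higher, against 8.07%, and 1 was lower (Apoa4), against 6.08%. With no scaling that call was lost (Apoa4, -0.57), and under 5 alternatives the count of higher genes in LKO on HFD became 2, with Apoc2 added. Among 10 genes, counts this small say nothing about the group beyond the genes named. The comparisons share arrays, so the 4 differences of a gene are not independent of each other. In bulk liver RNA, fewer cells of a type and less RNA per cell cannot be told apart.

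**Figure D2:**
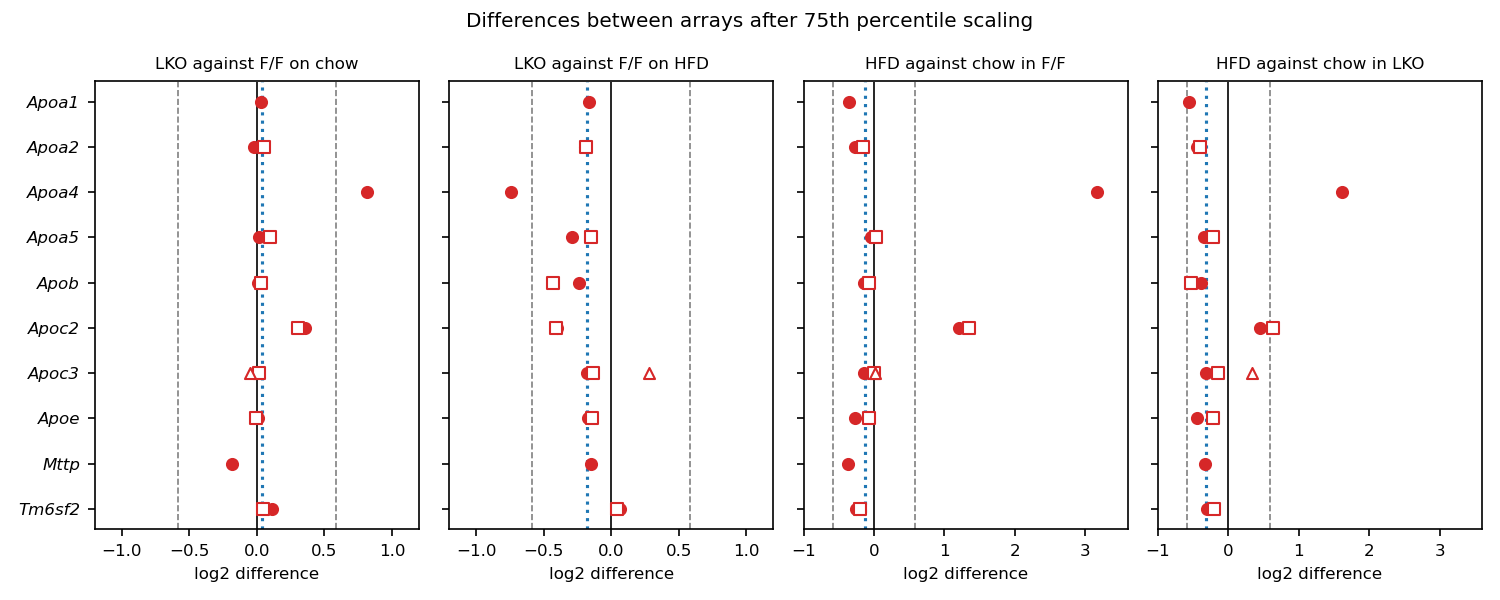
Log2 difference of every probe in the 4 comparisons, filled for the brightest probe of a gene and open for the others, with dashed lines at 1.5-fold and a dotted blue line at the median of the 1173 brightest genes on the array. The horizontal axes of the genotype and diet panels differ in range. Apoa4 lies beyond 1.5-fold in all 4 panels, and Apoc2 in HFD against chow in F/F and, by its dimmer probe, in LKO.

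The remaining 8 genes, set apart here after their values had been seen, shared a flat pattern. The highest of the 4 processed signals of the brightest probe was between 1.03 and 1.18 times the lowest. After the scaling, their differences for LKO against F/F on chow ran from -0.18 to 0.12, with 7 of 8 within 2 technical SD. On HFD they ran from -0.29 to 0.07, with 4 of 8 within 2 SD. The diet differences ran from -0.37 to -0.04 in F/F and from -0.56 to -0.30 in LKO, where all 8 were negative and beyond 2 SD.

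These negative values depend on the scaling. The HFD arrays had higher 75th percentiles, so a probe with an equal processed signal on all arrays comes out lower on HFD. The same was seen beyond these genes: among the 1173 brightest genes (mean signal of at least 7550), the median difference of HFD against chow was -0.13 in F/F and -0.32 in LKO, and 68.9% and 84.9% were lower. Over all genes with a value the medians were -0.02 and -0.07. Under 8 ways of scaling the arrays, Apoa1, Mttp and Tm6sf2 kept a negative sign for HFD against chow in F/F, and Apoa1 alone kept one in LKO. Whether the brightest genes fell or the remainder of the array rose on HFD cannot be told from these arrays.

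**Figure D3:**
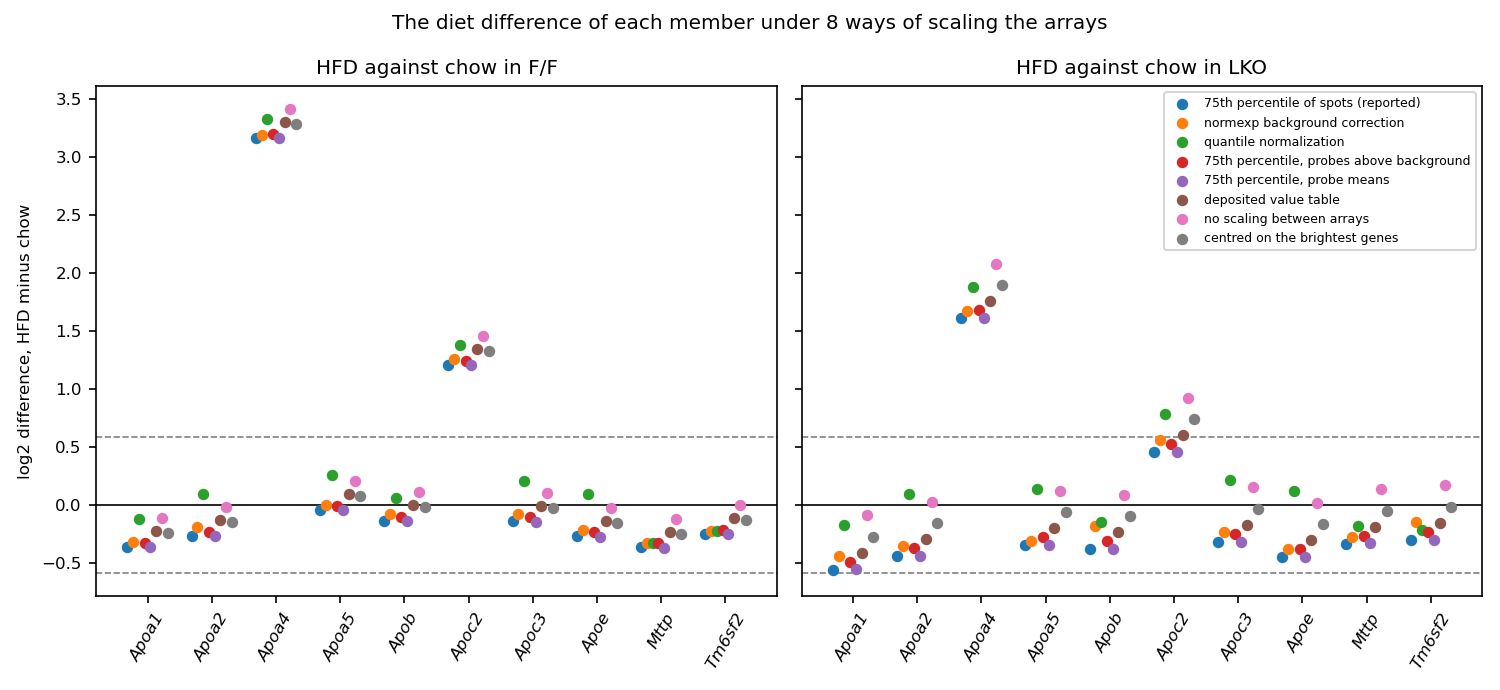
Log2 difference of HFD against chow for each gene in F/F (left) and LKO (right) under 8 ways of scaling the arrays, 1 point per scaling, with dashed lines at 1.5-fold. Apoa4 and Apoc2 are above 0 under every scaling, and the other genes lie within 0.56 of 0 with 7 of 8 in LKO, and 5 of 8 in F/F, not keeping 1 sign.

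The scaling also moves the counts over all genes. On HFD against chow in F/F, 2033 genes were higher and 1474 lower by at least 1.5-fold, against 2765 and 972 with the factors of the deposited value table, 3549 and 693 with no scaling, and 2657 and 1031 with the arrays centred on their brightest genes. In LKO the counts were 2347 and 1789, against 2992 and 1189, 5311 and 547, and 3785 and 838. For LKO against F/F on HFD they were 1253 and 944, against 1994 and 557 with no scaling and 1848 and 606 when centred on the brightest genes. The median difference of all genes well above background moved by over 0.1 in the same way, for example from -0.09 to 0.38 with no scaling for HFD against chow in LKO.

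Apob and its loading factors gave little difference. Apob, the structural protein of VLDL, gave 30989 and 29932 on chow and 33440.4 and 31826 on HFD. The arrays lay within 1.12-fold of each other, and the log2 difference of LKO against F/F was 0.01 on chow and -0.24 on HFD. Its dimmer probe gave 3970.2 and 3906 on chow and 4502 and 3755 on HFD, with a difference of -0.43 on HFD, so the probes differ in size there and not in sign. The diet difference in LKO was -0.38 by the brighter probe and -0.53 by the dimmer.

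Mttp, with 1 probe, gave 3219.9 and 2725 on chow and 2966 and 2999 on HFD. The LKO chow array was the lowest, with a log2 difference from F/F of -0.18, just over 2 technical SD, and this sign was kept under all 8 scalings, from -0.24 to -0.18. On HFD the difference of LKO against F/F was -0.15, and it was 0.02 without scaling. The diet difference was -0.37 in F/F and -0.33 in LKO.

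Tm6sf2, a membrane protein of the endoplasmic reticulum and Golgi, gave 1193 and 1243 on chow and 1190.1 and 1400.01 on HFD. It was the only gene of the 10 with a positive difference of LKO against F/F on both diets under all 8 scalings. The sizes, 0.12 on chow and 0.07 on HFD, were below 2 technical SD, and the dimmer probe, with signals from 68.6 to 82.7, gave 0.04 on both.

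Among the structural proteins of HDL, Apoa1 gave 53639.5 and 52775 on chow and 49568 and 49727 on HFD. Both HFD arrays were lower than both chow arrays even in the unscaled signal, and Apoa1 was the member that stayed negative on HFD in both genotypes under all 8 scalings, from -0.36 to -0.11 in F/F and from -0.56 to -0.09 in LKO. The smallest of these, from the unscaled signal, were below 2 technical SD. Apoa1 missed the 1.5-fold threshold in LKO with a difference of -0.56 (1.47-fold lower). Apoa2, the other main HDL protein, gave 204351 and 193838 on chow and 201551 and 197855 on HFD, with no array standing apart. Its dimmer probe gave 167061 and 166969 on chow and 178604 and 175900 on HFD. The scaled diet differences of the brighter probe were -0.27 in F/F and -0.44 in LKO, and those of the dimmer were -0.15 and -0.40, while quantile normalization gave 0.09 in both genotypes for the brighter probe.

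The regulators of triglyceride clearance other than Apoc2 were flat. Apoc3, an inhibitor of lipoprotein lipase and of remnant uptake, gave 116077 and 111201 on chow and 124929 and 123628 on HFD, with LKO a little below F/F on both diets. The difference of LKO against F/F was -0.01 on chow and -0.18 on HFD. The middle probe gave 55906.5 and 54239 on chow and 66549 and 68202 on HFD, and for HFD against chow in LKO these probes gave -0.32 and -0.14. The third probe of Apoc3 was dim, with signals from 150.4 to 264, and differed from both in sign, with 0.34 for HFD against chow in LKO and 0.28 for LKO against F/F on HFD.

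Apoa5, which promotes lipolysis by lipoprotein lipase, gave 83647 and 81496 on chow and 96484.5 and 88670.4 on HFD, a range of 1.18-fold. LKO against F/F on HFD was -0.29 by this probe and -0.15 by the dimmer, and the sign of the former was kept under all 8 scalings, from -0.32 to -0.09. The diet difference in F/F was -0.04 and 0.03 by the same probes.

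Apoe, the ligand by which remnants bind hepatic receptors, gave 195828 and 189679 on chow and 192616 and 192340 on HFD, the narrowest range of the 10 genes at 1.03-fold. Between the genotypes this came to 0.01 on chow and -0.17 on HFD. Its dimmer probe gave 148909 and 142858 on chow and 167573 and 170890 on HFD. The scaled diet differences in LKO were -0.45 and -0.21, and the first of these is an almost constant signal divided by a higher 75th percentile.

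**Figure D4:**
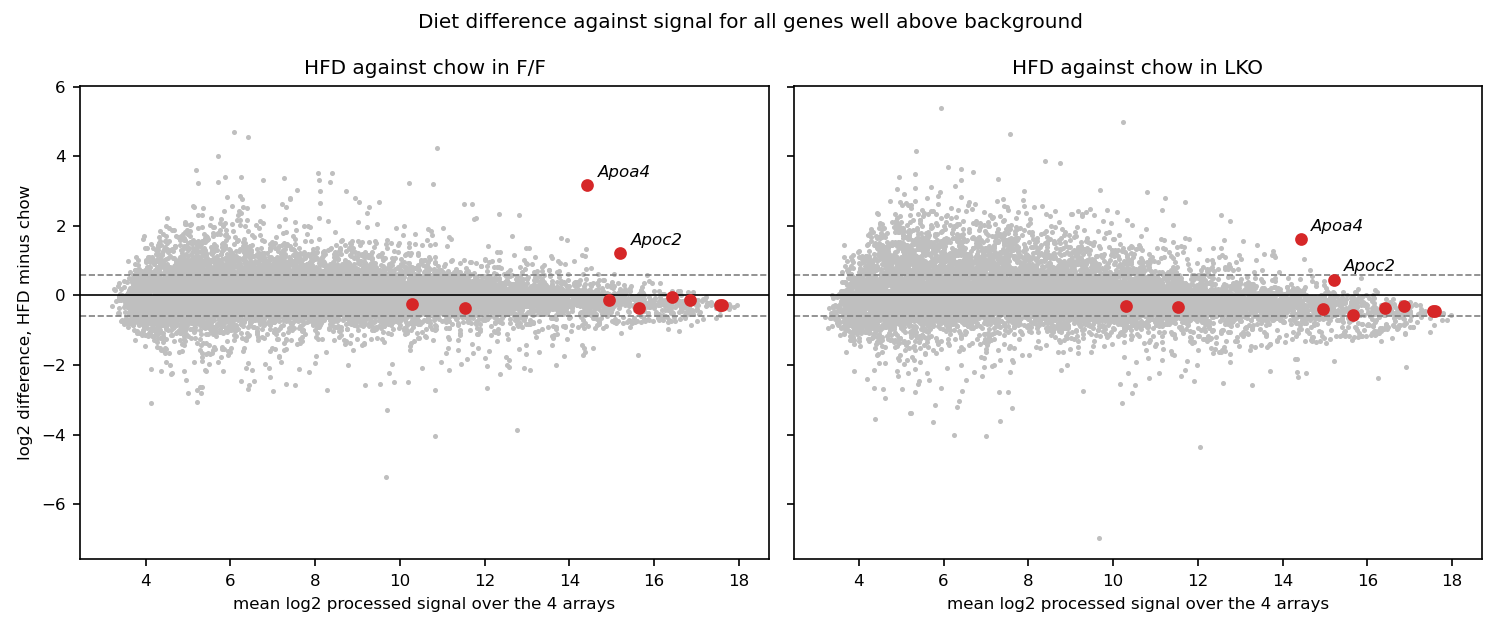
Log2 difference of HFD against chow against the mean log2 processed signal over the 4 arrays, in F/F (left) and LKO (right), with the 10 genes in red, the 13981 genes well above background on all 4 arrays in grey and dashed lines at 1.5-fold. Apoa4 lies above 1.5-fold in both panels and Apoc2 in F/F only, and the other 8 genes lie below 0 with most bright genes.

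The genes next to Apoa4 and Apoc2 differed from them. On chromosome 9 the order is Apoa1, Apoc3, Apoa4, Apoa5. The diet difference of Apoa4 in F/F was 3.17, and its neighbours gave -0.14 (Apoc3) and -0.04 (Apoa5). On chromosome 7 the order is Apoc2, Apoc4, Apoc1, Apoe. There the diet differences in F/F were 1.21 for Apoc2, and for the others Apoc4 0.00, Apoc1 -0.28 and Apoe -0.27. For LKO against F/F on HFD, Apoc2 and Apoc4 were close, at -0.40 and -0.38, while on chow they were 0.35 and 0.04.

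The genes whose pattern over the 4 arrays lay nearest to that of Apoa4, the member with the widest range, included Stap1 and Chil1, by root mean square distance between log2 values centred over the arrays (0.14 and 0.18, among 13971 genes). Stap1, an adaptor protein, gave 16.9 and 29.5 on chow and 212 and 109 on HFD. Chil1, a chitinase-like protein, gave 9.03 and 17.2 on chow and 129 and 87.0 on HFD. On F/F chow the Chil1 signal lies close to 7.80, the lowest that was well above background on that array, and Stap1 was dim there too. Within a distance of 0.5, 49 genes were found.

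From 4 lists of related genes, 40 differences were selected, at most 5 per list and comparison. Each was at least 1.5-fold under the reported scaling. All alternative scalings but normexp and quantile normalization shift every gene of a comparison by the same amount. That amount was below the threshold, so under those scalings the sign of the 40 was fixed in advance. All 40 kept their sign under the 8 scalings, and 19 of them were at least 1.5-fold under every scaling. The number of genes called in a list moved more. List counts are to be read beside the shares of all genes given above.

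Of 14 other apolipoproteins, 12 had a value on HFD, and 4 of these were lower and 1 higher in LKO. Apol7a (-0.91) and Apon (-0.70) were among those lower, with Apol9a (-0.65) and Apol9b (-0.63), near-identical copies whose probes may share signal. Apol11b was higher (0.92), but at signals of 9.7 and 20.7 near the background. Over the scalings, from 1 to 4 genes were lower and from 0 to 2 higher. On chow 0 of the 11 with a value were called. Apom, the HDL carrier of sphingosine 1-phosphate, was lower on HFD in F/F, at 11176 against 17600.4 (-0.90), and 0 were higher there. In LKO 1 was counted as higher on HFD and 0 were lower. This was again Apol11b, at least 1.85-fold higher, a bound, since its probe was not well above background in LKO on chow.

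The 29 further genes of VLDL assembly and secretion, among them the protein disulphide isomerase subunit P4hb, the COPII coat and the triglyceride synthases, gave 0 called genes for LKO against F/F on either diet. On HFD against chow, Ces1d, a triglyceride hydrolase, was lower in F/F (-0.66) and in LKO (-0.59), and Aadac, another lipid hydrolase of the endoplasmic reticulum, was lower in LKO (-0.76). Over the scalings, the diet comparison in LKO gave from 0 to 2 lower and from 0 to 5 higher genes, and the genotype comparison on HFD from 0 to 2 higher genes. The medians of the 29 were 0.04, -0.13, -0.16 and -0.31 in the order LKO against F/F on chow, on HFD, and HFD against chow in F/F and in LKO. Those of the 10 members were 0.01, -0.19, -0.20 and -0.34. In the diet comparisons both sets of medians changed sign with the scaling, for the 29 in F/F from -0.16 to 0.09 and in LKO from -0.31 to 0.17.

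Among 22 receptors, lipases and remodelling proteins, 7 genes were called for HFD against chow in F/F (5 higher, 2 lower), where 13.2% of all genes were higher and 9.6% lower. In LKO 10 were called (4 higher, 6 lower), where the shares were 15.4% and 11.7%. Under the other scalings the lower genes numbered from 0 to 2 in F/F and from 0 to 6 in LKO, while from 5 to 8 and from 3 to 7 were higher. Vldlr, the VLDL receptor, gave 409 on HFD against 80.0 on chow in F/F (2.11) and 321 against 109 in LKO (1.09). Lpl, the lipase that Apoc2 activates, was higher on HFD by 0.88 in F/F and 2.14 in LKO, and it was higher in LKO than F/F on HFD by 1.37. The cholesterol exporter Abcg1 was higher by 0.89 and 1.37. Lipc, hepatic lipase, was lower on HFD by -0.66 and -0.78, and Pon1, a paraoxonase on HDL, by -0.78 in LKO. Pltp, the phospholipid transfer protein, was higher in LKO on both diets, with 540.1 against 1402 on chow (1.43) and 813 against 1706 on HFD (0.90), and was the 1 gene of the list called on chow. On HFD, 3 genes were higher in LKO (Lpl, Pltp and Abcg1) and 1 was lower, the endothelial lipase Lipg (-0.85). Over the scalings from 3 to 4 were higher and from 0 to 2 lower.

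Of 19 transcription factors and coactivators known to act on apolipoprotein genes, on HFD against chow 3 were higher and 3 lower in F/F, and 1 was higher and 5 were lower in LKO. Over the scalings from 2 to 3 were lower in F/F and from 1 to 5 in LKO, where Ppara, Hnf4a and Mlxipl were called in 3, 3 and 2 of the 8. Onecut1 was lower in both (-1.10 and -1.17), as was Hnf4a (-0.75 and -0.66), a nuclear receptor that drives many apolipoprotein genes. Foxa2 was lower in F/F, at 1292 against 2176, and Srebf1, the regulator of fatty acid synthesis, was higher by 0.94 there, with Nr2f1 (0.73). In LKO, Ppargc1a was higher by 0.92, while Ppara (-0.67) and Mlxipl (-0.65) were lower. For LKO against F/F, Ppargc1b (-0.65) and Ppargc1a (-0.62) were lower on chow, and Ppargc1b (-0.89), Srebf1 (-0.75), Nr0b2 (-0.68) and Ppara (-0.62) were lower on HFD, with 0 higher on either diet. Over the scalings the number lower ran from 0 to 2 on chow and from 1 to 4 on HFD, where Nr0b2 was called in 5 and Ppara in 4 of the 8. Creb3l3, a hepatic factor known to act on Apoa4 and Apoc2, gave 31109 and 30083 on chow and 34199.6 and 31369.8 on HFD.

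**Figure D5:**
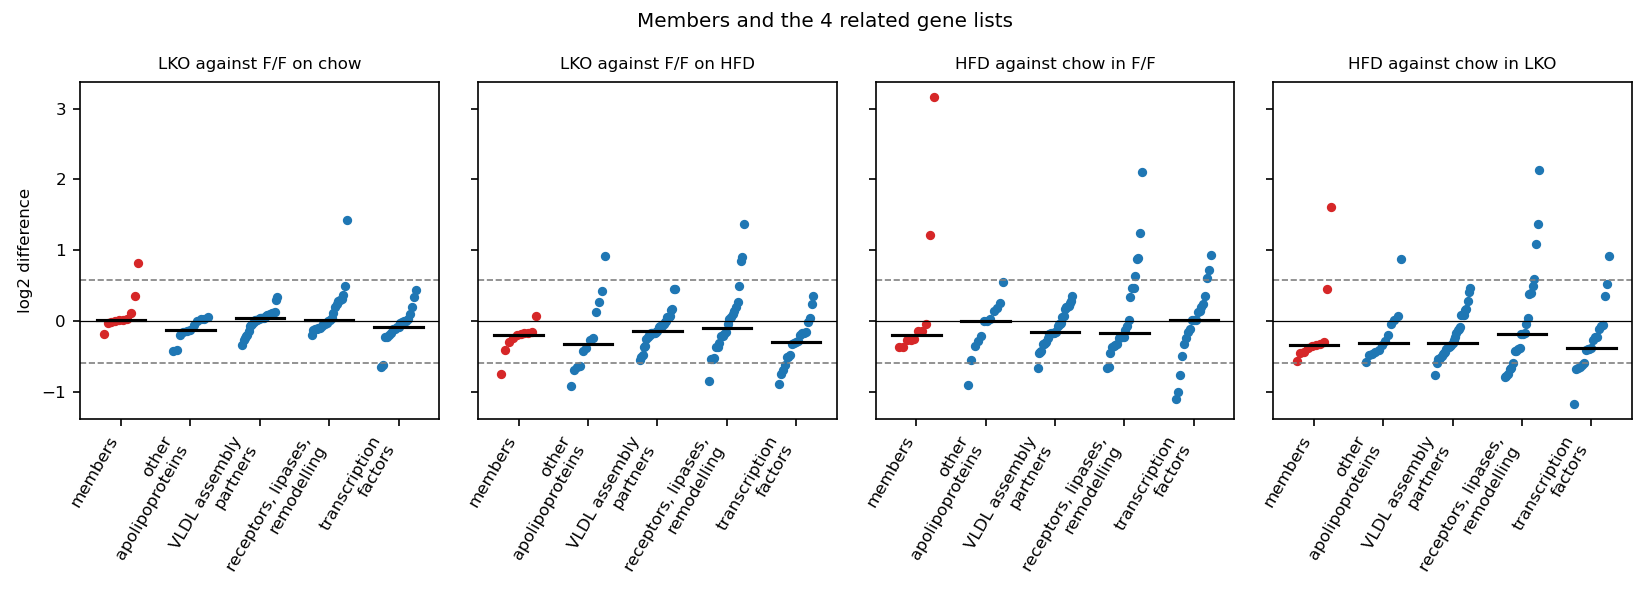
Log2 differences of the 10 genes (red) and of 4 lists of related genes (blue) in the 4 comparisons, 1 point per gene with a value, black bars for medians and dashed lines at 1.5-fold. Apoa4 has the highest difference of all lists for HFD against chow in F/F, and list medians lie between -0.38 and 0.04.

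Markers of other cells were compared because Apoa4 is also made by intestine and because RNA of other tissues would change the share of hepatocyte RNA. Of 10 enterocyte markers, 6 (Cdx1, Cdx2, Sis, Krt20, Alpi and Slc5a1) were not well above background on any array. Vil1 and Muc13 were so only on LKO HFD, at 48.9 and 23.5, and Lct only on LKO chow, at 16.1. The list's summed level over the 75th percentile was 63.2 and 82.3 on chow and 157 and 73.6 on HFD. Nearly all of it came from Fabp2, a fatty acid binding protein, at 13975 and 17526 on chow and 41414 and 21668 on HFD, an order of arrays that Apoa4 shares in the unscaled signal. After scaling, the diet difference in LKO was -0.16 for Fabp2, within 2 technical SD, and 1.61 for Apoa4. The unscaled Fabp2 signal in LKO was higher on HFD, so its sign depends on the scaling. The part of intestinal RNA in these signals was not tested. Hepatocyte markers summed to 4625 and 4702 on chow and 3702 and 3160.2 on HFD, and all 11 were lower on HFD in both genotypes, with medians of -0.31 and -0.60, under the scaling that also lowered the bright apolipoprotein genes. Their part in the results was not tested.

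The summed level of 12 macrophage and Kupffer cell markers was 119 and 113 on chow and 155 and 205 on HFD, and 10 of 12 were higher in LKO on HFD. The summed levels of 8 stellate cell markers were 9.50 and 10.1 on chow and 14.2 and 17.1 on HFD. For 8 cholangiocyte markers they were 5.22 and 4.72 on chow and 13.7 and 15.6 on HFD. Most of the cholangiocyte sum came from Spp1, at 840 and 796 on chow and 3314 and 4158 on HFD. For HFD against chow in F/F, 4 of 7 cholangiocyte markers with a value were higher and 3 lower, with Sox9 at -1.93. Endothelial markers stood between 43.2 and 52.2. Summed exocrine pancreas markers were highest on LKO HFD (71.7) and F/F chow (61.3), with 39.9 on LKO chow and 33.9 on F/F HFD. Apoa4 and Apoc2 had another order, and the part of pancreas RNA in their differences was not tested. A large part of the sum came from Cela1, at 7914 and 5299 on chow and 5408 and 6396 on HFD. Single markers set LKO HFD further apart, with median log2 differences of 1.90 from F/F HFD and 2.03 from LKO chow. Cela1 gave 0.07 and -0.20. All 13 markers lay above F/F HFD, and 12 of 13 above LKO chow. Red blood cell markers, 7 of 9 on the array and 2 of them, Epb42 included, not well above background, stood at 343 in F/F on HFD and between 171 and 174 on the others, and adipocyte markers at 339 and 329 on chow and 433 and 222 on HFD. Most of the adipocyte sum came from Car3, at 69603 and 61323 on chow and 90245 and 48402 on HFD, and single markers went different ways, with Retn at -2.44 and Cidec at 2.30 for the diet difference in F/F. The part of these cells in the differences was not tested.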

How the data were processed

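Liver RNA of 4 groups of mice (F/F and LKO, chow and HFD) was measured on 1 one-colour Agilent array each. Groups were taken from the sample titles. The spot intensity values that the authors deposited are those of Agilent Feature Extraction 12.0.3.1, background already subtracted. A value table was deposited too, which equals the processed signal times 1 factor per array (on chow 2.60 for F/F and 2.63 for LKO, on HFD 2.41 and 2.10), whose origin is not stated in the sources used here. The RNA kit named in the labels differs from that in the methods.

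Processed signals were divided by the array's 75th percentile over its non-control spots and log2 was taken (Python 3.11.15, pandas 2.3.3, numpy 2.4.6). Spots marked as outliers were left out, and spots of one probe were averaged. Transcript accessions were matched to genes through RefSeq (GRCm38.p6), for 33767 of 56605 probes (59.7%), and the brightest probe stood for a gene. A gene had a value where it was well above background on both arrays, or as a bound where it was so on 1. Between 53.0% and 57.0% of spots were well above background, which stands in for depth, and the number of arrays limits the precision. With 1 array per group no test was made.

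Named genes were all members with every probe, at most 5 per list and comparison with the largest differences of at least 1.5-fold, and the 3 genes nearest in pattern to the member with the widest range. Some genes that this rule selects are not reported here. P4hb, Creb3l3, Fabp2, Car3, Retn, Cidec, Apoc1 and Apoc4 were named after their values had been seen. The members and lists were chosen with earlier results of these data known. Alternatives were normexp with offset 50 (limma 3.58.1, R 4.3.3), quantile normalization, 2 other percentiles, the deposited table, other probes, no filter, and fold thresholds above and below 1.5. No scaling, and centring on the brightest 5% of genes, were added after the data had been seen. The steps were tested on simulated data. Figures were drawn with matplotlib 3.10.9.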

Additional observations from a re-analysis of the deposited data

Results flagged for a closer look

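Apoa4 and Apoc2 differed between the genotypes in opposite directions on the 2 diets, in each case by more than 2 technical SD. For Apoa4, the log2 difference of LKO against F/F was 0.82 on chow and -0.74 on HFD, and for Apoc2 it was 0.35 and -0.40. The difference between the diets was -1.56 for Apoa4 and -0.75 for Apoc2, and for the second probe of Apoc2 it was -0.72. With 1 array per condition the difference was not tested.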

How the results depend on the processing

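The median difference of the 10 genes moved by more than the technical spread of 0.089 under several settings. For HFD against chow in F/F it was -0.20, against -0.078 centred on the brightest genes, -0.060 with the deposited value table, -0.071 with the dimmest probe, 0.052 with no scaling and 0.093 with quantile normalization. In LKO it was -0.34, against -0.056, -0.19, -0.22, 0.13 and 0.11 in the same order. For LKO against F/F on HFD it was -0.19, against -0.048 centred on the brightest genes, -0.021 with no scaling and -0.070 with quantile normalization. On chow it moved by less than that spread under every setting.

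The number of genes at least 1.5-fold different was 2 for HFD against chow in F/F and 1 in each other comparison. At a threshold of 0.32 on the log2 scale it was 4 for HFD against chow in F/F, 8 in LKO, and 2 for the genotype comparison on either diet. These counts pool both directions, and shares of all genes at this threshold are not given. For HFD against chow, Apoa4 and Apoc2 were the higher genes in both genotypes. The lower genes were Apoa1 and Mttp in F/F, and Apoa1, Apoa2, Apoa5, Apob, Apoe and Mttp in LKO. Of those lower in LKO, only Apoa1 kept its sign under all 8 scalings. At 2-fold the number was 0 for the genotype comparison on either diet. At 1.5-fold, HFD against chow in LKO gave 2, with Apoc2 added, when centred on the brightest genes or with the deposited table. The dimmest probe, no scaling and quantile normalization gave 2 as well. For LKO against F/F on HFD the number at 1.5-fold was 0 with no scaling, where Apoa4 gave -0.57. Of 400 single-gene values under the alternatives, 272 moved by less than the technical spread and 128 by more. Some of the 272 could not move. Without the filter all values equal the reported ones, since all 18 probes were well above background. For Apoa1, Apoa4 and Mttp, with 1 probe each, the mean and the dimmest probe also give the reported value. The cause of the 128 larger moves, beyond the scaling factors themselves, was not tested. No paired analysis was possible because each condition has 1 array and no test was made, and leaving out an array would leave a group empty.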
